A study of Mus musculus with 15 samples.

Results

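Heat shock proteins and DnaJ proteins are the chaperones that bind unfolded polypeptides, help them fold and pass those that cannot fold to degradation. Their transcript levels were followed in whole eyes of 2 mouse models of Huntington's disease (HD) and of wild type (WT) mice. The genes were chosen by symbol alone, as those that begin with Hspa, Hspb, Hspd, Hspe or Hsph and a number, with Hsp90, or with Dnaja, Dnajb or Dnajc and a number. A gene was kept where the annotation of the array gave a probe set that symbol alone, and where a gene had several such probe sets the brightest on average was taken. This gave 66 chaperone genes of 22180 genes measured. They comprised 2 HSP90 genes, 3 HSP110 genes, 11 HSP70 genes, 7 small heat shock protein genes, 2 mitochondrial chaperonin genes and 41 DnaJ genes, of which 3 were of class A, 12 of class B and 26 of class C. A further 6 genes of these names, Dnaja1, Dnajb8, Dnajc17, Dnajc19, Dnajc19-ps and Hspb2, shared each probe set with another gene and were not analysed here, and Hsp90ab1 was not analysed here either.

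RNA of eyeballs from C57BL/6J mice was hybridised to 15 arrays. At 6 months of age the labels give 4 arrays of WT mice and 3 of R6/1 mice, and at 9 weeks of age 4 arrays of WT mice and 4 of R6/2 mice. WT mice were littermates. R6/1 and R6/2 mice carry a transgene with a mutated exon 1 fragment of human HTT, so that neither model holds an expanded repeat in the full mouse gene, and both were at the symptomatic stage. The transgene held 131 ± 3.1 (SD) CAG repeats in R6/1 mice and 162 ± 2.8 (SD) in R6/2 mice, according to the labels. The isolated RNA was pooled into these samples per the methods of the study, and the labels name no animals, so a p-value measures only the spread between these pooled samples.

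The chaperones form a network. HSP70 proteins bind exposed hydrophobic stretches in cycles of ATP hydrolysis, DnaJ proteins (also called HSP40) bring clients and start the hydrolysis, HSP110 proteins release the nucleotide, and HSP90 proteins finish the folding of signalling proteins. Small heat shock proteins hold unfolded proteins without ATP, and the chaperonin of Hspd1 and Hspe1 folds proteins inside mitochondria. Several of these proteins, DNAJB6 and DNAJB1 among them, slow the aggregation of proteins with long glutamine repeats in cell models, and the small heat shock proteins include the alpha crystallins of the lens, which lie outside the naming rule used here.

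The arrays were heterogeneous in ways that touch the chaperones. The eye was represented, with Cryaa of the lens at 10.80 to 11.36, Krt12 of the cornea at 9.54 to 10.56 and Gnat1 of rods at 10.44 to 11.17 on the log2 scale over the 15 arrays. At 6 months the array labelled WT replicate 4 went against its label in the genes of cones and of skeletal muscle. The mean log2 level of 8 cone genes was 3.73 in it, against 5.12 to 5.56 in the other WT arrays and 3.37 to 3.49 in R6/1 arrays, and that of 12 skeletal muscle genes was 5.57, against 7.18 to 7.70 and 5.86 to 6.92. Its Tmem26 level was 4.96, against 3.01 to 3.20 in the other WT arrays and 5.12 to 5.53 in R6/1 arrays. Its Fabp7 level was 5.79, against 4.82 to 5.11 and 6.14 to 6.52. The methods count 3 WT and 4 R6/1 samples at this age, the labels 4 and 3. The labels were kept, and the main results at 6 months are also given without this array. Some are given with it counted as R6/1 as well. At 9 weeks, WT replicates 2 and 4 stood apart in the mean of 7 genes of lacrimal and Harderian glands. It was 6.71 and 6.81 in them, against 5.69 and 4.91 in WT replicates 1 and 3 and 4.50 to 5.47 in R6/2 arrays. Elovl3 (9.11 and 9.51 against 6.04 and 1.64), Fasn and Scd1 made most of this difference. Aqp5 was lower in both (7.53 and 7.03 against 7.75 and 7.64). Dgat2 was higher in replicate 4 only, Lcn11 in replicate 2 only, and Awat2 was dim, at 1.86 and 2.00. The interquartile range of all values was 2.17 in replicate 3 of WT at 6 months, 2.26 in replicate 3 of R6/1 and 2.43 in replicate 3 of WT at 9 weeks, where the remaining arrays had 2.47 to 2.61. These 3 arrays held the lowest value of their group for 44, 42 and 29 of the 66 chaperone genes.

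**Figure D1:**
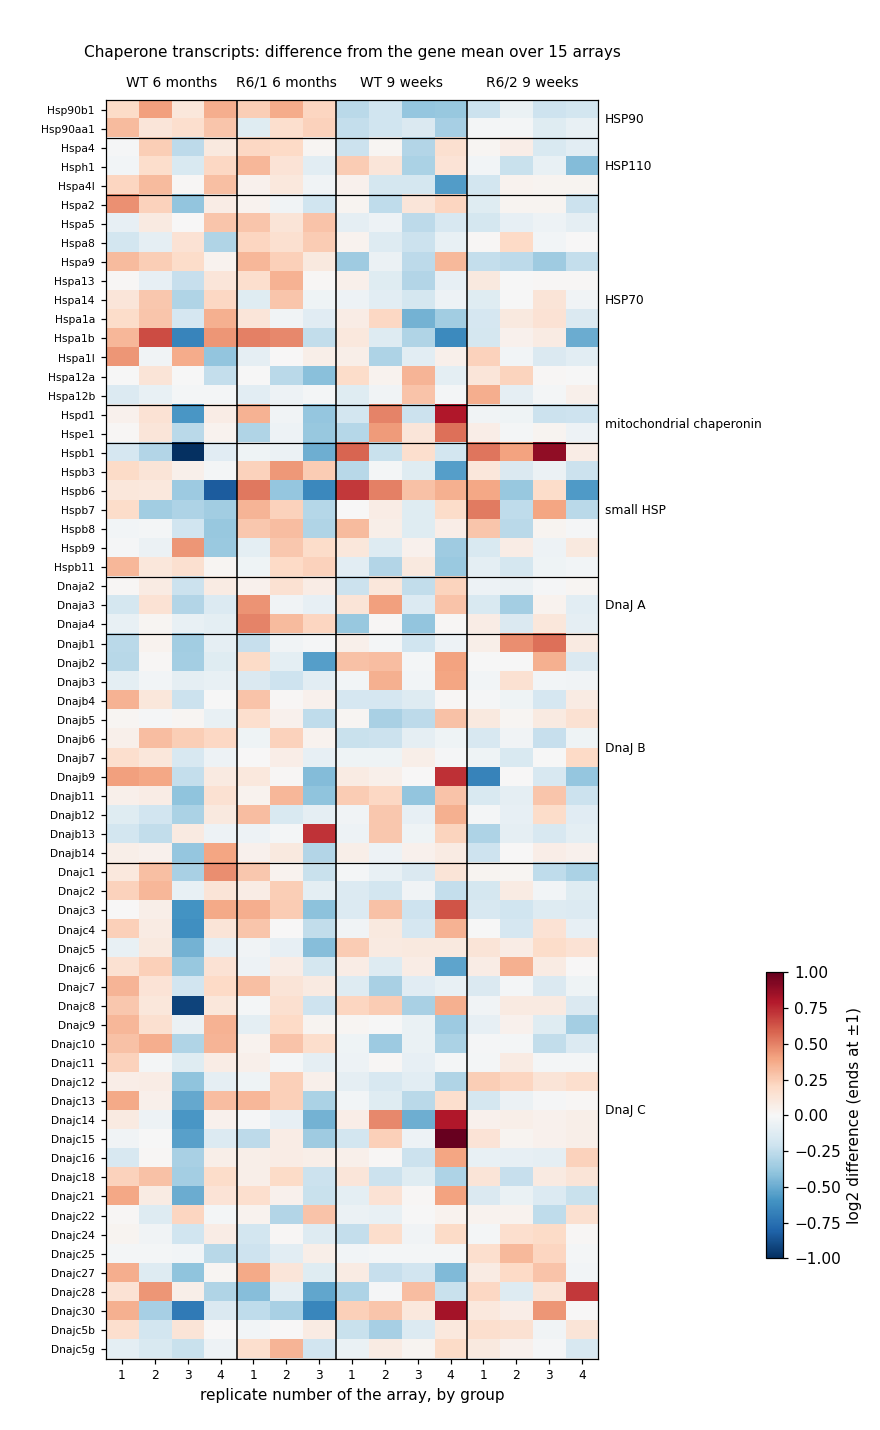
Each row is 1 of the 66 chaperone genes, ordered by family, and each column 1 of the 15 arrays, grouped by genotype and age. Colour gives the log2 level minus the mean of that gene over 15 arrays, and replicate 3 of WT at 6 months is blue for many DnaJ C genes, while both HSP90 genes are redder in the arrays of 6 months than in those of 9 weeks.

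Levels differed little between most arrays. Over the 66 genes, the median SD between arrays of a group was 0.19 in WT at 6 months, 0.18 in R6/1, 0.19 in WT at 9 weeks and 0.11 in R6/2 on the log2 scale. The mean log2 level was under 4 for 18 of the genes. Among these, 10 lay below the median of all probe sets in every array, namely Dnajb3, Dnajb7, Dnajb13, Dnajc5b, Dnajc5g, Dnajc22, Hspa1l, Hspa12b, Hspb9 and Hspb11, several of which are known from testis. 

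The comparison of R6/1 with WT eyes at 6 months asked whether chaperone transcripts move in the longer course of the disease. None of the 66 genes changed in R6/1 eyes at p under 0.05 and a Benjamini-Hochberg adjusted p under 0.20, the threshold of the study (limma, 0 called, lowest adjusted p = 1.0). The same test called 2 of 22180 genes (0.00902%). At an unadjusted p under 0.05 there were 2 chaperone genes, Dnaja4 and Hspa8, which is 3.03% of the members against 3.1% of all genes. The log2 fold changes ran from -0.43 to 0.40 with a median of 0.00, where the median over all genes was 0.01, and 33 of 66 were above 0. The 95% interval lay within a 2-fold change either way for all 66 genes and within 1.5-fold for 55. Arrays of the groups did not overlap for 5 of 66 chaperone genes (Dnaja4, Dnajb3, Dnajc16, Hspa8 and Hspb3), a larger share than the 3.13% of all genes. Without the array labelled WT replicate 4, 0 chaperone genes were called (0.234% of all genes). In that setting 5 of 66 had an unadjusted p under 0.05 (limma, 3.6% of all genes) and 8 of 66 did not overlap (5.97% of all genes), both larger shares than those of all genes. The additional genes were Dnajc28, Hspa13 and Hspa5. With WT replicate 4 counted as R6/1, 0 chaperone genes and 51 of 22180 genes (0.23%) were called. With the replicate number as a block, 0 chaperone genes and 62 of 22180 genes were called. No R6/1 array shares the number of WT replicate 4, so that array did not enter the contrast in the block fit.

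The comparison of R6/2 with WT eyes at 9 weeks asked the same of the faster model. Again none of the 66 chaperone genes changed (limma, 0 called, lowest adjusted p = 0.511), where the test called 17 of 22180 genes (0.0766%). That background depended on single arrays, and leaving out 1 at a time gave 0 to 902 genes (0.0% to 4.07%), the highest without WT replicate 3 at 9 weeks. At an unadjusted p under 0.05 there were 4 genes, Dnajc12, Dnajb1, Dnajb9 and Dnajc5b, or 6.06% of the members against 7.81% of all genes. The log2 fold changes ran from -0.56 to 0.39 with a median of 0.03, beside 0.02 over all genes, and 37 of 66 were above 0. The 95% interval lay within a 2-fold change for 65 genes, all but Hspb6, and within 1.5-fold for 49. Arrays of the groups did not overlap for 4 genes (Dnajb1, Dnajb13, Dnajc12 and Hsp90aa1), against 5.23% of all genes. Leaving out any single array called no chaperone gene in either model.

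**Figure D2:**
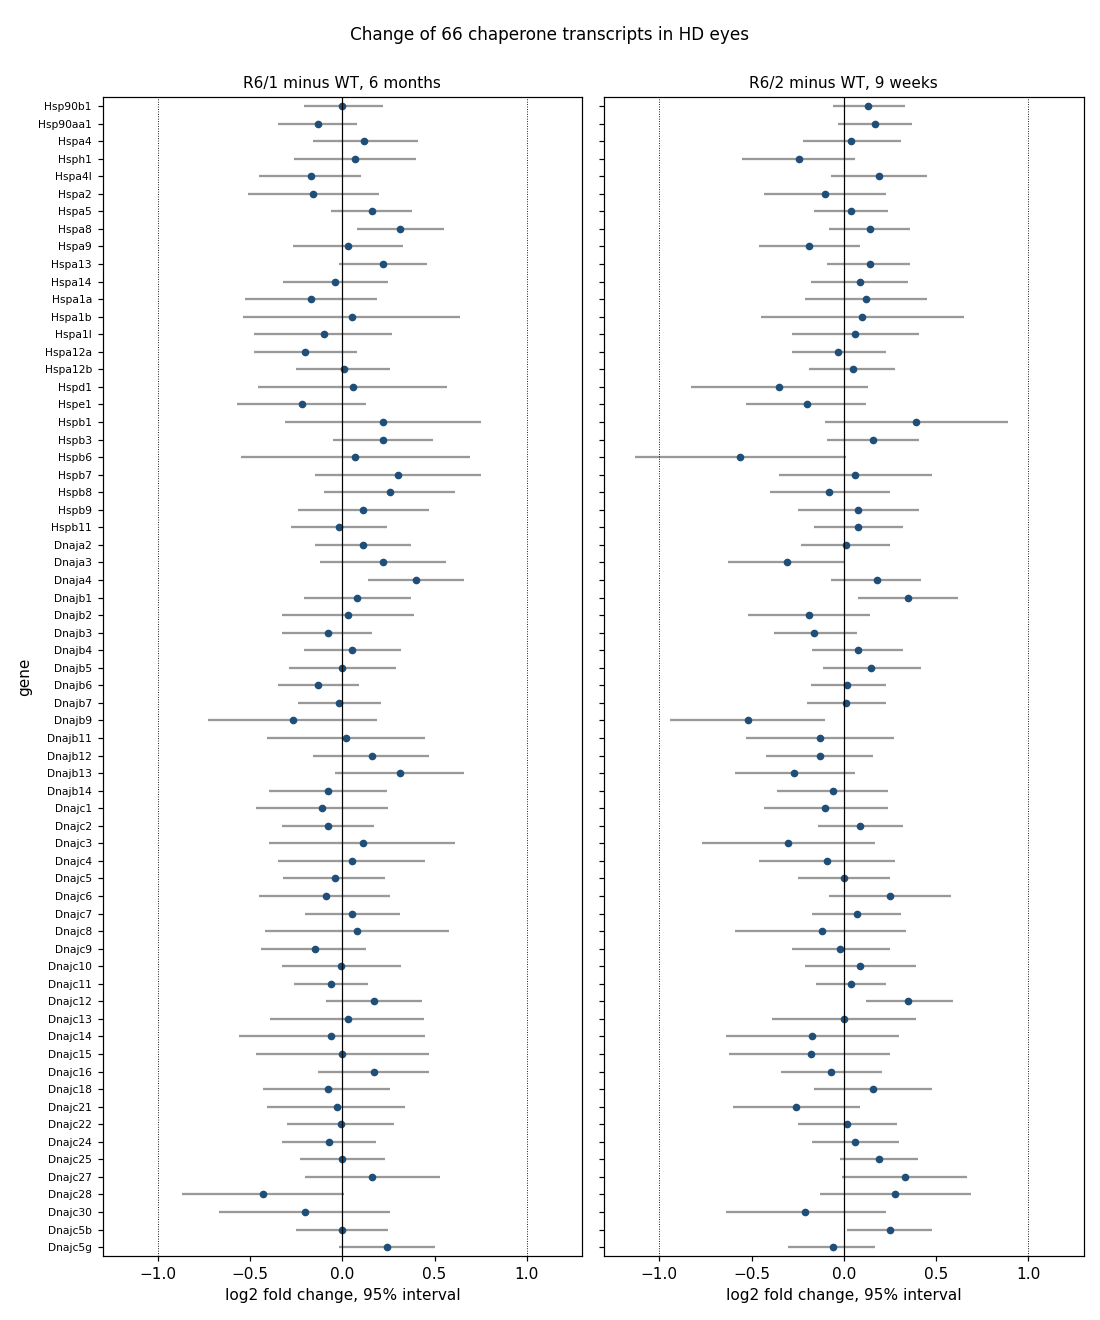
Points give the log2 fold change of each chaperone gene and lines its 95% interval, for R6/1 minus WT at 6 months on the left (3 and 4 arrays) and R6/2 minus WT at 9 weeks on the right (4 and 4 arrays). Dotted lines mark a 2-fold change, and the interval of 1 gene, Hspb6 in R6/2 eyes, reaches beyond one of them.

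By family, the HD eyes showed shifts of modest size. For HSP90 the log2 fold changes were -0.13 (Hsp90aa1, the inducible cytosolic form) and 0.00 (Hsp90b1, the form of the endoplasmic reticulum) in R6/1, and 0.17 and 0.13 in R6/2. The 3 HSP110 genes lay between -0.17 and 0.12 in R6/1 and between -0.24 and 0.19 in R6/2, with Hsph1, the heat-inducible member, at 0.07 and -0.24. The 11 HSP70 genes lay between -0.20 and 0.31 in R6/1 and between -0.19 and 0.14 in R6/2. The 9 inducible cytosolic genes that were measured, which include Hspa1a, Hspa1b, Hsph1, Hsp90aa1, Dnajb1 and Hspb1, had medians of 0.07 and 0.14, and 0 of 9 were called in either model. Hspa1a and Hspa1b encode almost the same inducible HSP70 and may share probe signal. Their log2 fold changes were -0.17 ± 0.17 (SE) and 0.05 ± 0.28 in R6/1 and 0.12 ± 0.15 and 0.10 ± 0.26 in R6/2.

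The 2 genes of low p in R6/1 both act in the HSP70 cycle. Dnaja4, a cytosolic DnaJ protein of class A, had log2 levels of 4.85, 4.95, 4.85 and 4.83 in WT arrays 1 to 4 and 5.42, 5.24 and 5.14 in R6/1 arrays 1 to 3. The groups did not overlap, and all R6/1 arrays were higher. The log2 fold change was 0.40 ± 0.12 (SE, 95% interval 0.14 to 0.66, adjusted p = 1.0), and 0.39 without WT replicate 4. With that array counted as R6/1 it was 0.28 (limma, unadjusted p = 0.0744). Hspa8, the constitutive cytosolic HSP70 that also strips clathrin from vesicles, was at 8.90, 9.00, 9.23 and 8.79 in WT and at 9.30, 9.25 and 9.34 in R6/1. WT replicate 3 came within 0.02 of the lowest R6/1 array. The log2 fold change was 0.31 ± 0.11 (95% interval 0.08 to 0.55, adjusted p = 1.0), and 0.25 without WT replicate 4. With that array counted as R6/1 it was 0.12 (limma, unadjusted p = 0.377). Neither gene then had an unadjusted p under 0.05. The sign for Hspa8 depended on the probe set. Of the 4 probe sets that name Hspa8 alone, that of highest interquartile range gave -0.41 and their mean -0.02. In R6/2 eyes the same genes stood at 0.18 and 0.14.

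Dnajc28, a little studied DnaJ C gene, had the lowest fold change in R6/1. Its log2 levels were 3.11, 3.41, 3.03 and 2.67 in WT and 2.54, 2.88 and 2.45 in R6/1, so that WT replicate 4 fell among the R6/1 arrays. The log2 fold change was -0.43 ± 0.21 (95% interval -0.87 to 0.01, adjusted p = 1.0) and -0.56 without that array. With that array counted as R6/1 it was -0.55 (limma, unadjusted p = 0.0104, adjusted p = 0.867). Hspa13, a microsomal HSP70 relative, had 0.22 ± 0.11 (0.28 without WT replicate 4) and Dnajc5g, a dim testis gene, 0.24 ± 0.12, both at an adjusted p = 1.0.

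Among the genes of low p in R6/2, Dnajc12 had the lowest. Its protein is a co-chaperone of the aromatic amino acid hydroxylases. Its log2 levels were 5.27, 5.20, 5.26 and 5.06 in WT arrays 1 to 4 and 5.61, 5.58, 5.49 and 5.53 in R6/2 arrays 1 to 4. All R6/2 arrays were higher, with a log2 fold change of 0.35 ± 0.11 (SE, 95% interval 0.12 to 0.59, adjusted p = 0.511). In R6/1 eyes it was 0.17 ± 0.12.

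Dnajb1, the heat-inducible HSP40, was at 4.86, 4.79, 4.61 and 4.76 in WT and at 4.87, 5.27, 5.36 and 4.90 in R6/2. The groups did not overlap, but R6/2 replicates 1 and 4 lay close to the WT arrays and replicates 2 and 3 made most of the difference. The log2 fold change was 0.35 ± 0.13 (95% interval 0.08 to 0.62, adjusted p = 0.535). Dnajb9, a DnaJ protein of the endoplasmic reticulum that serves Hspa5, was at 5.92, 5.89, 5.84 and 6.57 in WT and at 5.17, 5.84, 5.68 and 5.45 in R6/2. R6/2 replicate 2 equalled WT replicate 3 at 2 decimals, and WT replicate 4, 1 of the arrays rich in gland transcripts, was far above the rest. The log2 fold change was -0.52 ± 0.20 (95% interval -0.94 to -0.10, adjusted p = 0.549). Dnajc5b had 0.25 ± 0.11 and Dnaja3, a mitochondrial DnaJ protein, -0.31 ± 0.15, at adjusted p = 0.617 and 0.640. Dnaja3 has 3 probe sets, and that of highest interquartile range gave 0.22.

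**Figure D3:**
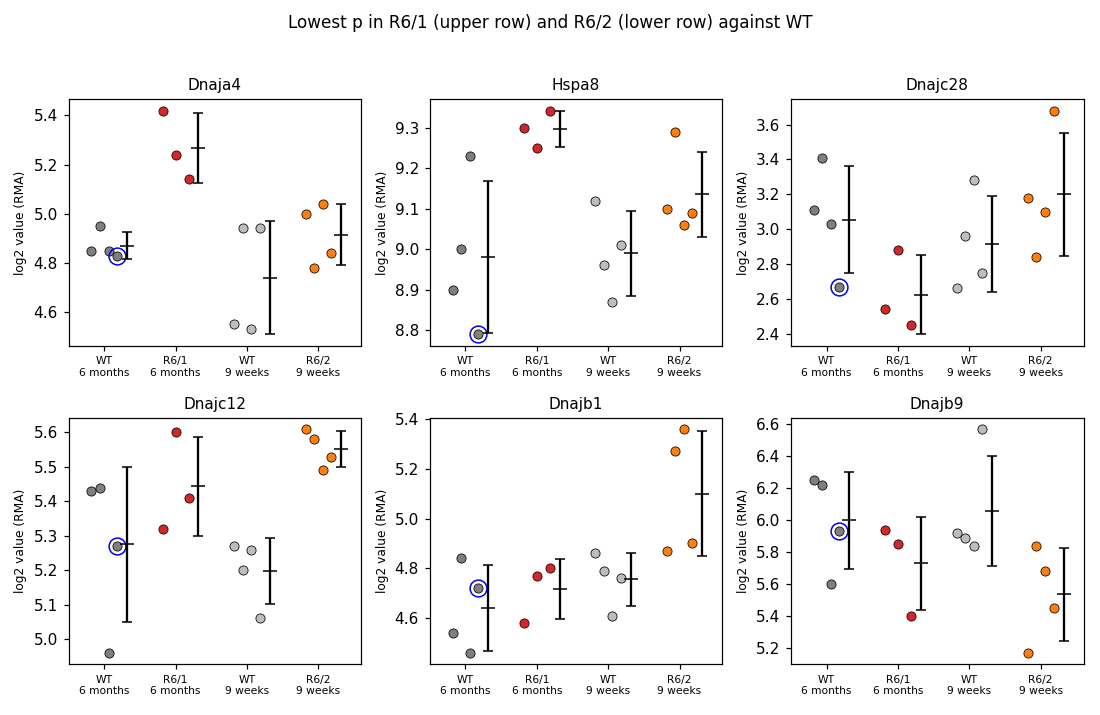
Dots are log2 levels of single arrays, the bar beside each group is its mean ± SD. A circle marks WT array 4 of the 6-month group. Upper panels hold Dnaja4, Hspa8 and Dnajc28 and lower panels Dnajc12, Dnajb1 and Dnajb9, and no R6/1 array overlaps WT for Dnaja4 nor an R6/2 array for Dnajc12. The vertical axes do not start at 0.

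Of the 66 genes, Hspb6, a small heat shock protein abundant in muscle, had the widest interval in both models. It was at 7.03, 6.83, 6.62 and 6.68 in WT at 9 weeks and at 6.71, 5.95, 6.51 and 5.76 in R6/2, a log2 fold change of -0.56 ± 0.27 (95% interval -1.13 to 0.01, adjusted p = 0.648). At 6 months WT arrays were at 6.44, 6.43, 5.96 and 5.49 and R6/1 arrays at 6.85, 5.94 and 5.68, and the log2 fold change was 0.07 ± 0.29, or -0.12 without WT replicate 4. At 9 weeks the mean log2 level of 12 skeletal muscle genes was likewise lower in HD eyes, at 6.94 to 7.45 in WT and 5.19 to 6.49 in R6/2. At 6 months all 12 had a log2 fold change below 0 in R6/1 as labelled (median -0.28, lowest -1.65), where Hspb6 was slightly above 0. That contrast depended on WT replicate 4, which had a muscle mean of 5.57. The other WT arrays were at 7.18 to 7.70, all above R6/1 at 5.86 to 6.92, and without that replicate Hspb6 was also below 0. Across 15 arrays the skeletal muscle mean correlated with Hspb6 at r = 0.68 (rho = 0.56, r = 0.86 within groups, r = 0.58 without the 2 arrays farthest from the median). Hspb6 also followed the mean of 8 immediate early genes (r = 0.67) and that of 7 smooth muscle and pericyte genes (r = 0.56). Other small heat shock proteins followed the skeletal muscle mean less, with r = 0.43 for Hspb8, 0.21 for Hspb7, -0.01 for Hspb3 and -0.26 for Hspb1. The part of muscle content in the result was not tested. In such bulk samples, fewer cells of a type and less RNA per cell cannot be told apart.

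Hspb1, the widespread small heat shock protein HSP25, was at 6.40, 5.59, 5.98 and 5.63 in WT at 9 weeks and at 6.35, 6.22, 6.70 and 5.89 in R6/2, with a fold change of 0.39 ± 0.23 (adjusted p = 0.736) and overlapping groups. Its level correlated across 15 arrays with the mean of 10 lens fibre genes (r = 0.83, rho = 0.80, r = 0.64 within groups, r = 0.85 without the 2 farthest arrays). The lens mean was 7.76 to 8.44 in WT at 9 weeks, 8.30 to 8.40 in R6/2, 7.70 to 8.04 in WT at 6 months and 7.68 to 7.93 in R6/1. Of the remaining genes, Hspb7 and Hspb8, which act in heart and skeletal muscle, had 0.30 ± 0.21 and 0.26 ± 0.17 in R6/1 (0.25 and 0.18 without WT replicate 4) and 0.06 ± 0.19 and -0.08 ± 0.15 in R6/2.

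Whether the models differed was tested as the R6/1 change less the R6/2 change. None of the 66 genes differed (limma, 0 called, and 0.0% of all genes), and 4 (6.06%) had an unadjusted p under 0.05, against 3.0% of all genes. These were Dnajb13 at 0.58 ± 0.22, Dnajc28 at -0.72 ± 0.28, Dnaja3 at 0.54 ± 0.22 and Hsp90aa1 at -0.31 ± 0.14, each at an adjusted p = 1.0. Without WT replicate 4 at 6 months Hsp90aa1 was no longer among them, and with the probe set of highest interquartile range the difference of Dnaja3 was -0.19. The 95% interval of the difference lay within 2-fold for 60 genes and within 1.5-fold for 31, so that a difference of moderate size between the models was not detectable for many of them.

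WT eyes of 6 months and of 9 weeks gave the clearer contrast, and both ends of it serve as controls above. Age and cohort cannot be told apart here. Of the 66 chaperone genes, 11 differed (16.7%), where the same test called 9.57% of all genes. At 6 months 8 were higher (4.04% of all genes were called higher) and 3 were lower (5.53% of all genes). At an unadjusted p under 0.05 there were 18 (27.3%), against 16.1% of all genes, and the groups did not overlap for 4, Hsp90b1, Hsp90aa1, Dnajb6 and Hspb6, against 5.96% of all genes. The count depended on single arrays. It was 5 without WT replicate 1, 2 without replicate 2 and 5 without replicate 4 at 6 months, 3 without WT replicate 2 and 4 without replicate 4 at 9 weeks, 7 without R6/1 replicate 2, and 5, 4, 6 and 4 without R6/2 replicates 1 to 4, and in these settings 2.62% to 8.1% of all genes were called. Without WT replicate 4 at 6 months the share of members was 7.58%, against 4.97% of all genes. After each array was centred on its median, 10 were higher and 0 lower (15.2% of members, against 9.3% of all genes called in either direction).

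Both HSP90 genes were higher at 6 months. Hsp90b1, also called GRP94, folds secreted and membrane proteins in the endoplasmic reticulum. Its log2 levels were 8.89, 9.11, 8.81 and 9.06 in WT arrays 1 to 4 at 6 months and 8.43, 8.50, 8.31 and 8.32 at 9 weeks. Every array of 6 months was above every array of 9 weeks. The log2 fold change was 0.57 ± 0.09 (SE, 1.49-fold, 95% interval 0.38 to 0.77, adjusted p = 0.0109), and 0.54 without WT replicate 4 (adjusted p = 0.0364). It stayed past the threshold in all 32 alternatives run. The HD arrays lay at the level of their age, at 8.94, 9.07 and 8.91 in R6/1 and 8.48, 8.63, 8.49 and 8.51 in R6/2.

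Hsp90aa1, the inducible cytosolic HSP90, was at 7.55, 7.35, 7.40 and 7.51 in WT at 6 months and at 6.99, 7.03, 7.09 and 6.90 at 9 weeks. The groups were again apart, with a log2 fold change of 0.45 ± 0.09 (1.37-fold, 95% interval 0.25 to 0.65, adjusted p = 0.0348) and 0.43 without WT replicate 4 (adjusted p = 0.0862). R6/1 arrays were at 7.11, 7.40 and 7.46 and R6/2 arrays at 7.21, 7.21, 7.11 and 7.16, so that all R6/2 arrays were above all WT arrays of their age (log2 fold change 0.17 ± 0.09, adjusted p = 0.712). The call was lost in 2 of 32 alternatives, a fit of the WT arrays alone and one without WT replicates 2 and 4 at 9 weeks. The gland genes moved the other way, with a mean log2 level of 4.53 to 4.77 in WT at 6 months and 4.91 to 6.81 at 9 weeks, and their part in these results was not tested. Over 15 arrays Hsp90aa1 correlated with the gland mean at r = -0.73 (rho = -0.70) and Hsp90b1 at r = -0.65 (rho = -0.71). Without the 2 arrays farthest from the median r was -0.63 and -0.67, and within groups it was -0.34 and 0.09.

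Dnajb6, which suppresses the aggregation of polyglutamine proteins, was also higher at 6 months. Its log2 levels were 4.62, 4.88, 4.82 and 4.78 in WT at 6 months and 4.35, 4.36, 4.48 and 4.53 at 9 weeks, with a log2 fold change of 0.34 ± 0.10 (95% interval 0.14 to 0.55, adjusted p = 0.0975). Without WT replicate 4 it was 0.34 (adjusted p = 0.176). It lost its call in 6 of 32 alternatives. In HD eyes it did not pass the test, at -0.13 ± 0.10 in R6/1 and 0.02 ± 0.10 in R6/2. Hspa4l, an HSP110 protein that is abundant in testis, was at 7.24, 7.34, 7.04 and 7.33 at 6 months and at 7.07, 6.85, 6.85 and 6.47 at 9 weeks. WT replicate 1 of 9 weeks exceeded WT replicate 3 of 6 months, and the fold change was 0.43 ± 0.12 (adjusted p = 0.102), or 0.39 without WT replicate 4 of 6 months, which was still called. The call was lost in 7 of 31 alternatives.

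The other genes that were higher at 6 months had adjusted p-values near the threshold, and the call was lost in 12 of 31 alternatives for Hspb11, 14 of 31 for Hspb3, 17 of 32 for Dnajc2 and 19 of 32 for Dnajc10. Hspb11, which despite its name belongs to the intraflagellar transport complex of cilia, ran from 2.52 to 2.83 at 6 months and from 2.13 to 2.60 at 9 weeks (log2 fold change 0.32 ± 0.11, adjusted p = 0.167). Hspb3, a muscle small heat shock protein, ran from 3.42 to 3.63 and from 2.89 to 3.42 (0.33 ± 0.12, adjusted p = 0.172). Dnajc2, a DnaJ protein of the ribosome, ran from 5.38 to 5.79 and from 5.22 to 5.42 (0.30 ± 0.11, adjusted p = 0.177). Dnajc10, a disulfide reductase of the endoplasmic reticulum, ran from 5.73 to 6.40 and from 5.67 to 5.99 (0.37 ± 0.14, adjusted p = 0.199), and without WT replicate 4 its adjusted p was 0.355. Hspb3 and Dnajc2 also lost the call without that array, at adjusted p = 0.219 and 0.259, while Hspb11 kept it at 0.197.

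The 3 genes that were lower at 6 months all lost their call without WT replicate 4, and in 21 of 32 alternatives for Hspb6, 17 of 32 for Dnajb2 and 16 of 31 for Dnajc30. Hspb6 showed the largest log2 fold change among the 11, -0.71 ± 0.27 (adjusted p = 0.199), from the values given above, with all arrays of 6 months below those of 9 weeks. Without WT replicate 4, which was the lowest, it was -0.51 (adjusted p = 0.399). Dnajb2, a neuronal DnaJ protein that sends clients to the proteasome, was at 3.93, 4.22, 3.87 and 4.09 at 6 months and at 4.50, 4.52, 4.19 and 4.61 at 9 weeks. WT replicate 3 of 9 weeks fell below replicate 2 of 6 months, and the fold change was -0.43 ± 0.16 (adjusted p = 0.179, 0.250 without WT replicate 4). Dnajc30, a mitochondrial DnaJ protein, was at 3.93, 3.24, 2.87 and 3.43 at 6 months and at 3.81, 3.85, 3.68 and 4.41 at 9 weeks, with overlapping groups and a fold change of -0.57 ± 0.20 (adjusted p = 0.172, 0.247 without WT replicate 4). It followed the gland mean across 15 arrays (r = 0.73, rho = 0.79, r = 0.47 within groups, r = 0.65 without the 2 farthest arrays).

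**Figure D4:**
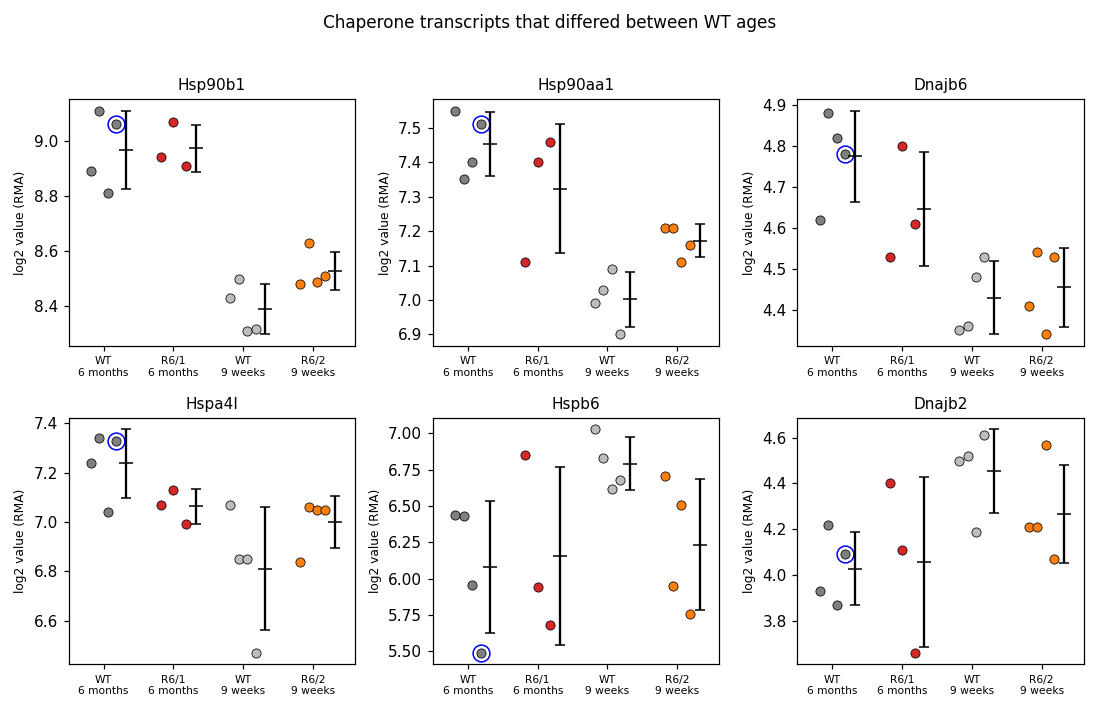
Dots are log2 levels of single arrays for 6 of the 11 genes that differed between WT ages, with the mean ± SD of each group beside them and WT array 4 of the 6-month group circled. Hsp90b1, Hsp90aa1 and Dnajb6 have every WT array of 6 months above those of 9 weeks, and Hspb6 has every one below. The vertical axes do not start at 0.

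In the endoplasmic reticulum, Hsp90b1 works with Hspa5, also called BiP, the HSP70 of that compartment, and with Dnajc3, a DnaJ protein that also restrains the kinase PERK. Hspa5 was at 6.34, 6.51, 6.43 and 6.70 in WT at 6 months, 6.70, 6.55 and 6.71 in R6/1, 6.33, 6.37, 6.16 and 6.26 in WT at 9 weeks and 6.25, 6.34, 6.37 and 6.33 in R6/2. Its difference between WT ages was 0.22 ± 0.09 (adjusted p = 0.267), or 0.15 without WT replicate 4 (adjusted p = 0.508), and it was 0.16 ± 0.10 in R6/1 (adjusted p = 1.0). WT replicate 4 lay at the level of R6/1 arrays, and without it the R6/1 arrays were all above WT, at 0.23 (adjusted p = 1.0). Hspa5 and Hsp90b1 correlated at r = 0.82 over 15 arrays (rho = 0.85, r = 0.81 without the 2 farthest arrays) and at r = 0.45 within groups. Of 14 genes of the endoplasmic reticulum, 2 were higher in WT at 6 months, Hsp90b1 and Dnajc10, and 0 were called in either model.

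The promoters of these 3 genes hold the endoplasmic reticulum stress element, to which ATF6 binds with NF-Y. RefSeq promoters (GRCm38.p6), from 250 bases before to 50 after each start, were listed for 54 of the 66 genes. The element was searched as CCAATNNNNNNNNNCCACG on both strands, with N for any base. It was found in 3 of 69 promoters listed for chaperone genes, of 3 genes, and in 0.119% of 32851 promoters of all genes. The stretches are shown, with the element in capitals, because they are the members' stretches that hold it. They lie at chr2:34771995-34772073 on the plus strand for Hspa5, chr10:86705503-86705686 on the minus strand for Hsp90b1 and chr14:118937797-118937875 on the plus strand for Dnajc3.
Hspa5: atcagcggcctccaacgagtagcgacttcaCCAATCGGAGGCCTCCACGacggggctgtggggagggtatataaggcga
Hsp90b1: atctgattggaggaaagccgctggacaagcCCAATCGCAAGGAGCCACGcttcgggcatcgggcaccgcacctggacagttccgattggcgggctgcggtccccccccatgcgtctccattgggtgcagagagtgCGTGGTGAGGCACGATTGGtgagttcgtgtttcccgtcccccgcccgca
Dnajc3: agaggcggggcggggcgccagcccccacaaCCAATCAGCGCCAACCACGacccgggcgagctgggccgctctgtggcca
Hsp90b1 holds 2 matches, in opposite orientations, and the others 1 each. Of the 3 genes, Hsp90b1 alone was called between WT ages. Dnajc3 was at 5.84, 5.90, 5.24 and 6.22 in WT at 6 months and at 5.70, 6.13, 5.63 and 6.47 at 9 weeks, with overlapping groups, where Hsp90b1 was apart. A match is a description of the sequence and not a measured site.

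The heat shock element, to which the heat shock factors bind, was searched as GAANNTTCNNGAA and its reverse complement TTCNNGAANNTTC. It was found in 6 of 69 promoters listed for chaperone genes, those of Dnajb6, Hspd1, Hspe1 and Hsph1, and in 0.603% of 32851 promoters of all genes. These 6 are not separate sites, since promoters listed for Dnajb6 hold the same stretch and Hspd1 and Hspe1 share another. The search took this exact pattern alone, so a promoter without a match may still hold another form of the element. In Hsph1 the matches reach past the start of the gene and are not printed. Hspd1 and Hspe1, which encode HSP60 and HSP10 of the mitochondrial chaperonin, lie head to head on chromosome 1, on the minus and the plus strand. Of the 2 windows listed for Hspd1, 1 shares 285 bases with that of Hspe1 and holds the same stretch, chr1:55088029-55088106, while the other shares 4 bases and does not hold it. It is shown on each strand because it is the sequence that these 2 members have in common, and that of Dnajb6 (chr5:29735822-29735894, plus strand) because Dnajb6 differed between WT ages. Capitals mark the elements, of which 2 overlap in Hspd1 and Hspe1.
Hspd1: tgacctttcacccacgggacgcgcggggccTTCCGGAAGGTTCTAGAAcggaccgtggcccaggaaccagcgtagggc
Hspe1: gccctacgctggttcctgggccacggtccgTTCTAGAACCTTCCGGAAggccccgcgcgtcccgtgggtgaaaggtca
Dnajb6: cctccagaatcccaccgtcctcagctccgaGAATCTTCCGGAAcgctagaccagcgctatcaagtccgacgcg

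The 2 chaperonin genes followed each other only in part. Hspd1 was at 5.31, 5.41, 4.68 and 5.34 in WT at 6 months, 5.61, 5.23 and 4.88 in R6/1, 5.08, 5.76, 5.05 and 6.07 in WT at 9 weeks and 5.23, 5.22, 5.05 and 5.06 in R6/2. Hspe1 was at 5.45, 5.56, 5.17 and 5.48, at 5.14, 5.39 and 5.06, at 5.16, 5.87, 5.56 and 5.99 and at 5.51, 5.42, 5.47 and 5.39 in the same order. Both were highest in WT replicates 2 and 4 at 9 weeks, the arrays rich in gland transcripts. Over 15 arrays they correlated at r = 0.73 (rho = 0.48, r = 0.79 within groups), and at r = 0.31 without those 2 arrays, which are also the farthest from the median. Hspd1 correlated with the gland mean at r = 0.63 and, without those arrays, at r = -0.12. For Hspe1 the values were 0.72 and 0.11. The same 2 arrays also had the highest means of 7 smooth muscle and pericyte genes, 6.36 and 6.34. With that mean Hspd1 correlated at r = 0.72 and Hspe1 at r = 0.69. The genes of that list did not move alike. Cnn1 was at 5.60 and 5.72 in these arrays, against 3.67 and 2.96 in WT replicates 1 and 3 of 9 weeks. Pdgfrb was at 5.11 and 4.84, against 5.32 and 5.26. Which tissue the correlations reflect was not tested. The fold changes in R6/2 were -0.35 ± 0.23 for Hspd1 and -0.20 ± 0.15 for Hspe1, and in R6/1 they were 0.06 ± 0.24 and -0.22 ± 0.16. No difference passed the test.

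**Figure D5:**
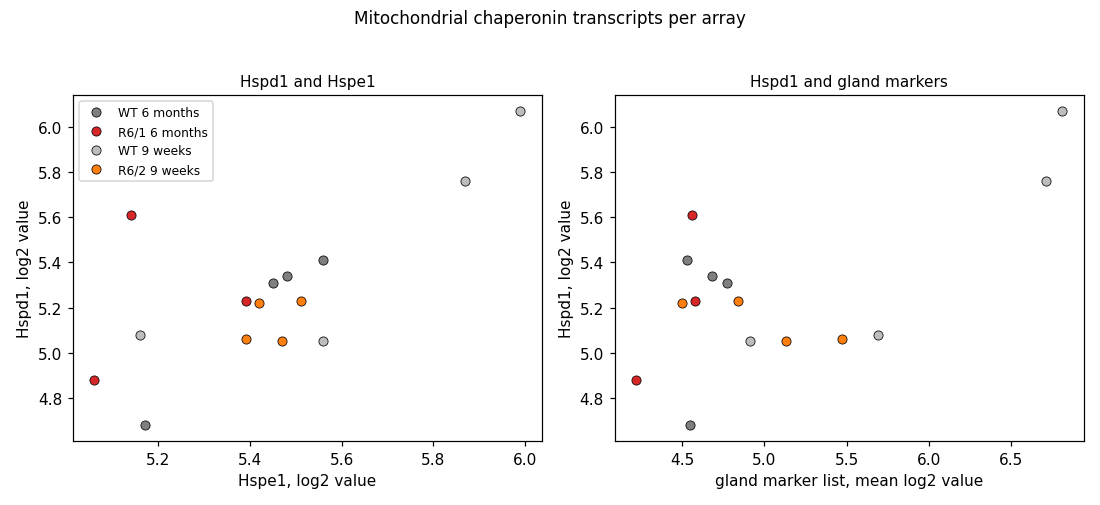
Each dot is 1 of 15 arrays, with the log2 level of Hspd1 on the vertical axes and that of Hspe1 (left) or the mean log2 level of 7 gland genes (right) on the horizontal axes. The 2 arrays at the upper right of both panels are WT replicates 2 and 4 at 9 weeks, without which r is 0.31 on the left and -0.12 on the right.

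Other mitochondrial members behaved as modestly. Hspa9, or mortalin, the HSP70 of the mitochondrial import motor, was at 8.19 to 8.47 in WT at 6 months, 8.25 to 8.49 in R6/1, 7.80 to 8.48 in WT at 9 weeks and 7.80 to 7.92 in R6/2, and its difference between WT ages was 0.28 ± 0.13 (adjusted p = 0.298). Of 9 mitochondrial members measured, Dnajc30 alone was called, in the comparison of ages. The 5 clathrin and synaptic vesicle members, among them Dnajc5, the cysteine string protein of synaptic vesicles, and Dnajc6, or auxilin, had medians of -0.04 in R6/1 and 0.00 in R6/2, with 0 called. Dnajc5 was at 5.73 to 6.30 in WT at 6 months and 6.29 to 6.46 at 9 weeks (-0.27 ± 0.12, adjusted p = 0.274).

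Co-chaperones and partners outside the naming rule were counted in 6 lists with 67 genes measured that are not among the 66. In R6/1 eyes 0 of 67 were called and 0 had an unadjusted p under 0.05, and in R6/2 eyes 0 were called and 3 had such a p (limma), where 3.1% and 7.81% of all genes had one. Between WT ages 6 were higher and 6 lower, where 4.04% and 5.53% of all genes were. Of 16 HSP90 co-chaperones 3 were higher, among them Sugt1 (0.42 ± 0.13) and Stip1 (0.36 ± 0.13), which hands clients from HSP70 to HSP90, and 2 were lower, Fkbp8 (-0.49 ± 0.17) and Fkbp4 (-0.68 ± 0.26). Fkbp4 was at 5.54 to 6.10 in WT at 6 months and at 5.95, 6.82, 5.91 and 7.44 in WT arrays 1 to 4 at 9 weeks. The groups overlapped, and replicates 2 and 4 of 9 weeks, the arrays rich in gland transcripts, made most of that difference. Values without single arrays are not given for these partner genes. Of 14 genes of the cytosolic chaperonin TRiC and of prefoldin, which delivers actin and tubulin to it, 2 were higher, the prefoldin subunits Pfdn6 and Pfdn2 (both 0.47). Of 12 HSP70 nucleotide exchange factors and partners Bag6 was lower (-0.64 ± 0.16), and of 5 heat shock factors and their binding proteins Hsbp1 was lower (-0.33 ± 0.12). Of 18 genes of folding and stress in the endoplasmic reticulum, Canx was higher (0.28 ± 0.10) and Herpud1 and Atf4 were lower (-0.55 ± 0.14 and -0.35 ± 0.11). The alpha crystallins Cryaa and Cryab, the small heat shock proteins of the lens, were not called, and Cryab was at 9.52 to 9.80 in WT at 6 months and 9.61 to 10.30 at 9 weeks.

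Pairs of chaperone transcripts were compared over the 15 arrays as a description. Among the 48 members with a mean log2 level of at least 4 there were 1128 pairs, with a median r of 0.24, and 0.33 within groups. The highest r was that of Dnajc3 and Hspd1, at 0.90 (rho = 0.88, r = 0.90 without the 2 farthest arrays). Dnajc15, a DnaJ protein of the mitochondrial inner membrane, and Hspe1 came next at 0.87. Hspa1a and Hspa1b, which may share probe signal, were at 0.75. The 2 HSP90 genes correlated at r = 0.80, but at 0.06 within groups. Of all members and marker lists compared, Hspa1b and the mean of 8 Mueller glia genes had the highest r, 0.88 (rho = 0.88, r = 0.87 within groups, r = 0.86 without the 2 farthest arrays). Hspa1b also followed the corneal epithelium genes at r = 0.77, and Dnajc18 followed the 2 lists at 0.79 and 0.75. The points of such a correlation share the array and the spread of its values, given above.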

How the data were processed

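Whole-eye RNA was hybridised to Affymetrix Mouse Gene ST arrays. The authors applied RMA (affy), which subtracts background, equalizes the arrays and combines probes, and deposited log2 values of 41345 probe sets for 15 arrays. Of these, 23521 had 1 gene symbol, 1820 several and 16004 none. The labels name the IVT Express labelling kit and the methods the WT Plus kit. No probe intensities were used, and the number of arrays limits the precision.

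All 22180 genes were fitted with 4 group means in limma 3.58.1 (R 4.3.3) with empirical Bayes moderation and called at p under 0.05 and a Benjamini-Hochberg adjusted p under 0.20. The fit was tested on simulated data. The variance filter of the study was an alternative, since it would drop 26 of the 66 genes. The members, lists and tests were chosen with earlier results of these data known. Full values are given for genes of lowest p in each comparison and for genes that stand for their family, and Dnajb3, Dnajc2, Dnajc15, Dnajc16, Dnajc30 and the dim genes were named after their values were seen.

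Replicate numbers were checked for pairing. Deviations from the group means of R6/1 and WT arrays of the same number at 6 months correlated at r = 0.37, 0.33 and 0.73, so the number was taken to pair them, although arrays 1 and 2 of unlike number correlated at up to 0.293, and both replicate 3 arrays have a narrow spread. At 9 weeks r was 0.08, -0.25, -0.22 and 0.21, and it was not. The fold changes, SE, intervals and p-values printed here are from the fit without pairing. The block fit of R6/1 and R6/2 held the numbers of both ages.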

Additional observations from a re-analysis of the deposited data

Results flagged for a closer look

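Among the 40 genes singled out for description, 120 sets of 4 arrays (1 gene in 1 group) were examined for an array far from the other 3, and 11 (9.17%) had one. Chance flags about 1 in 20 such sets. In WT replicate 3 at 6 months, an array of narrow spread, 4 genes were far below the others: Dnajb11, a DnaJ protein of the endoplasmic reticulum, at 4.61 (others 5.07 to 5.17), Dnajc10 at 5.73 (6.33 to 6.40), Dnajc6 at 5.71 (6.23 to 6.33) and Hspd1 at 4.68 (5.31 to 5.41). Dnajb11 was also low in WT replicate 3 at 9 weeks, at 4.62 (5.22 to 5.30). Dnajb9 was high in WT replicate 4 at 9 weeks, at 6.57 (5.84 to 5.92). Hspb7 was high in WT replicate 1 at 6 months, at 4.03 (3.50 to 3.54), and Dnajc5 in WT replicate 1 at 9 weeks, at 6.46 (6.29 to 6.30). In R6/2 eyes, Hspa4l was low in replicate 1 at 6.84 (7.05 to 7.06), Hspa13 high in replicate 1 at 4.04 (3.94 to 3.95) and Dnajc5b low in replicate 3 at 1.90 (others 2.06 or more).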

How the results depend on the processing

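In R6/1 eyes, and in the difference between the models, 0 of 66 chaperone genes were called under every alternative. In R6/2 eyes 3 were called with array weights (Dnaja3, Dnajc12 and Dnajc5b, where 8.27% of all genes were called) and 9 without the 3 arrays of narrow spread (1 higher and 8 lower, 13.6% of members against 11.3% of all genes), and 0 under the other alternatives. Between WT ages the count of 11 became 2 at an adjusted p under 0.05 (1.06% of all genes), 1 (Hsp90b1) when only WT arrays were fitted (0.478%), 6 with an intensity trend (8.51%), 20 after quantile normalization (30.3% of members against 17.3% of all genes), 18 with array weights (18.9%), 22 with the interquartile range of the array as covariate (33.3% against 20.1%), 20 without the 3 narrow arrays (21.8%) and 5 with WT replicate 4 at 6 months counted as R6/1 (6.1%). It was 2 (Hsp90b1 and Hspa9) without WT replicates 2 and 4 at 9 weeks (1.65% of all genes), a choice made after seeing the data. Leaving out 1 array at a time gave 2 to 15 (2.62% to 14.7% of all genes). When replicate numbers were fitted as a block, 4 genes were called between WT ages (Dnajb2, Hsp90aa1, Hsp90b1 and Hspb6, 3.05% of all genes), though numbers of the 2 WT groups do not pair, and 0 in R6/1 and R6/2. The cause of these shifts was not tested. Of 805 values of single genes under the alternatives, 664 kept direction and side of the threshold, 131 lost their call, 6 gained one, and 4 that were not called changed sign, all with another choice of probe set (Hspa8 in R6/1 with 2 choices, Dnaja3 in R6/2 and in the difference between the models). The spread between few arrays limits what can be detected, with a median half-width of the 95% interval of 0.31 in R6/1 and 0.28 in R6/2 on the log2 scale.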
